A study of Mus musculus with 1 sample.

Results

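The 8 genes described here encode nuclear receptors that have been studied in the fetal gonad: *Nr5a1* (SF1), *Nr0b1* (DAX1), *Nr2f1* (COUP-TFI), *Nr2f2* (COUP-TFII), *Nr2f6* (EAR2), *Nr6a1* (GCNF), *Esr1* (estrogen receptor alpha) and *Nr3c1* (the glucocorticoid receptor). They were chosen by name, all 8 had a row among the 22631 features of the library, and they are 8 of 49 genes on a list of the nuclear receptor superfamily. The study asked what happens to Sertoli cells of the mouse testis when *Nr5a1* is deleted in them after sex determination, and used single-cell RNA sequencing of whole testes, in which each RNA molecule is counted by a unique molecular identifier (UMI). The only library used here is the control. Its label gives embryonic day 14.5 and a wild-type genotype, and 12 controls are counted as pooled in 1 suspension. The methods instead name controls that carry the *Nr5a1* L2 allele, with loxP sites around an exon of the gene, on both chromosomes and no Cre transgene, and the accompanying text names E13.5 as well as E14.5. The mice were of a mixed C57BL/6 and 129/SvPass background. The paper counts 12 control whole testes and gives no number of animals. Cells of the pooled controls cannot be told apart, so there was 1 sample, no test was possible, and every interval below covers counting error only.

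Nuclear receptors are transcription factors that share a zinc finger DNA-binding domain and a ligand-binding domain, and many bind DNA at copies of the half-site AGGTCA. NR5A1 binds as a monomer and is known for switching on steroidogenic enzymes in Leydig cells and *Amh* in Sertoli cells, and NR0B1 lacks the usual DNA-binding domain and represses NR5A1. The 3 NR2F proteins are orphan receptors, NR2F2 being a marker of the gonadal mesenchyme, NR6A1 represses pluripotency genes, and ESR1 and NR3C1 are activated by estrogens and glucocorticoids.

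The library had 5421 barcodes and 72595083 UMIs (median 10766 per barcode), of which 3812 cells with 54561312 UMIs (median 12068 per cell) were kept. The 372 barcodes with fewer than 200 genes held mostly hemoglobin and mitochondrial RNA (46.8 and 49.2% of their UMIs) and had 8 UMIs of *Nr2f2*, 4 of *Nr2f6*, 1 each of *Nr5a1* and *Nr3c1* and none of the other 4 receptors. Cells fell into 16 clusters, which were named from lists of markers that held none of the 8 receptors, and the receptors were also kept out of the genes used for clustering. The largest classes were 1162 interstitial-like, 921 Sertoli-like, 520 peritubular myoid-like, 313 Leydig-like, 249 germ-like, 146 coelomic epithelium-like and 104 perivascular-like cells. The Leydig-like cells fell into a cluster of 128 cells led by *Clps*, *Cyp11a1* and *C4b*, called the *Clps* cluster here, and one of 185 cells led by *Nppc*, *Vsnl1* and *Nts*, called the *Nppc* cluster, and all 6 Leydig markers were detected in both. A cluster of 203 dividing cells led by histone genes such as *H2ac8* missed the limit for the interstitial name (a mean log2 ratio to other cells of 0.9998, against a limit of 1) and stayed unnamed, as did 89 cells with *Emcn* and *Kcnk2* among their 3 leading genes, called the *Kcnk2* cluster here. Levels are given as CPM, the UMIs of the gene over all UMIs of the cells, times 1e+06. They come from the 3′ ends of transcripts, are not divided by length, and are compared between cell types for 1 gene at a time. Because cells differed in depth, shares of cells with a UMI are given for the 3648 cells of at least 5000 UMIs, each thinned at random to 5000, and then for all cells as read.

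**Figure D1:**
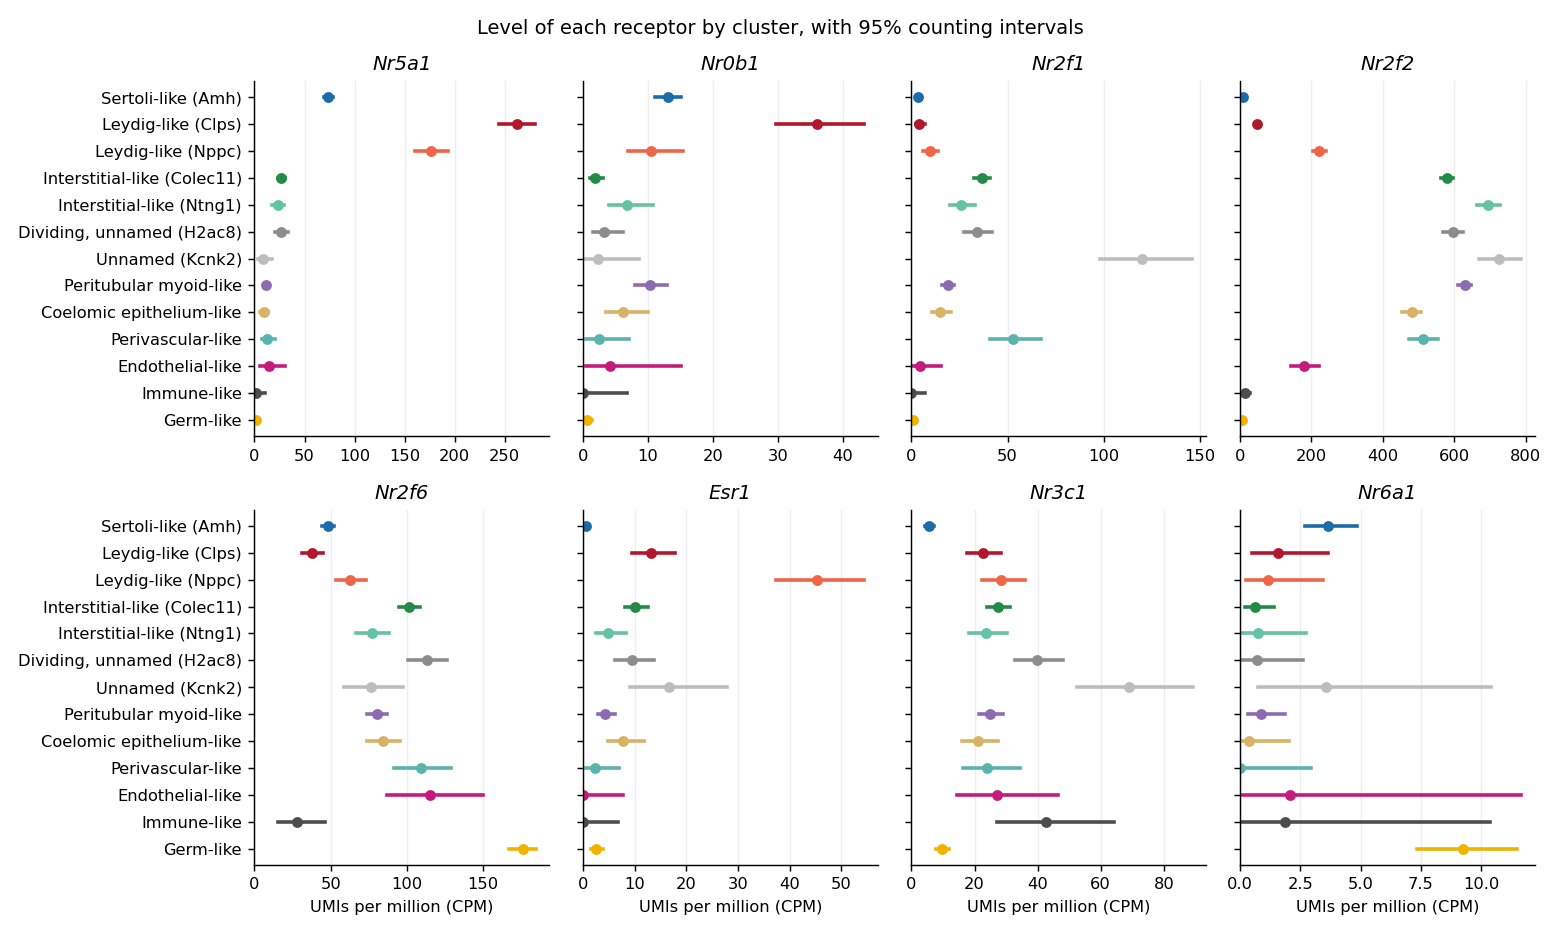
Each panel plots 1 receptor. The x axis is the level in CPM, starting at 0, the rows are 13 clusters with a leading gene in brackets where a name is shared, points are levels and lines their 95% Poisson intervals. Of the clusters plotted, *Nr5a1* and *Nr0b1* are highest in the *Clps* cluster of Leydig-like cells, *Esr1* in the *Nppc* cluster, *Nr2f1*, *Nr2f2* and *Nr3c1* in the unnamed *Kcnk2* cluster, and *Nr2f6* and *Nr6a1* in germ-like cells. For *Nr2f2* and *Nr3c1* the interval of the *Kcnk2* cluster overlaps that of the next cluster in the order.

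*Nr5a1* (ENSMUSG00000026751; GRCm38 chr2:38692656-38714542, minus strand) was highest in Leydig-like cells, with 224 CPM (95% interval 212 to 237). Sertoli-like cells had 73.6 CPM (69.0 to 78.4), so that the Leydig-like level was 3.04 times the Sertoli-like one (2.80 to 3.31). Interstitial-like cells had 26 CPM (23.1 to 29.3) and germ-like cells 1.37 CPM (0.707 to 2.39). The intervals of these 4 levels do not overlap. The 14 rete testis-like cells had 89.0 CPM (49.8 to 147), which overlaps the Sertoli-like level. Erythroid-like (16.5 CPM from 6 UMIs), endothelial-like (14.6 CPM), perivascular-like (12.8 CPM), peritubular myoid-like (11.7 CPM) and coelomic epithelium-like cells (9.14 CPM) followed, with intervals that overlap their neighbours in the order. With no outlier filter the perivascular-like level was 2.70 CPM, and with classes from each cell's own markers the peritubular myoid-like level was 19.4 CPM. Within the Leydig-like cells, the *Clps* cluster had 262 CPM and the *Nppc* cluster 177 CPM, a ratio of 1.484 (1.32 to 1.67). A cell of the *Clps* cluster held 0 to 21 *Nr5a1* UMIs with a median of 6, a cell of the *Nppc* cluster 0 to 12 with a median of 2, and a Sertoli-like cell 0 to 10 with a median of 1.

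After thinning, an *Nr5a1* UMI was found in 61.3% of Leydig-like cells (55.6 to 66.7%; 190 of 310) and in 29.98% of Sertoli-like cells (26.9 to 33.2%; 256 of 854). The same share was 10.7% of interstitial-like cells (8.97 to 12.7%; 118 of 1099) and 0.816% of germ-like cells (2 of 245), which should lack the gene. As read, the shares were 86.3, 59.3, 20.6 and 4.02%, at median depths of 16164, 14121, 8818 and 36155 UMIs. The interstitial-like share was therefore above that of germ-like cells although the interstitial-like cells were the shallower ones.

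The interstitial-like *Nr5a1* level was set against markers of the cells with most of it. It was 11.6% of the Leydig-like level, whereas the 6 Leydig markers had 0.0186 to 0.467% of their Leydig-like levels in interstitial-like cells. It was 35.4% of the Sertoli-like level, whereas the 10 Sertoli markers had 0.556 to 6.76% of theirs, the highest being *Sox9*. In interstitial-like cells with an *Nr5a1* UMI the summed level of the Leydig markers was 69.5 CPM (49.9 to 94.3), against 46.9 CPM (41.0 to 53.4) in those without, and 88 of the 118 cells had no UMI of any of the 6. In the *Colec11* cluster alone, which held 91 of the 118, it was 79.1 CPM (55.4 to 109.5) with and 47.3 CPM (40.5 to 54.9) without an *Nr5a1* UMI, which do not overlap, and in the *Ntng1* cluster 37.0 CPM (12.0 to 86.4) and 45.7 CPM (34.5 to 59.4). The part of Leydig or Sertoli RNA in the *Nr5a1* level of interstitial-like cells, the *Colec11* cluster included, was not tested. The summed level of the Sertoli markers was 124 CPM (97.0 to 156) with and 131 CPM (121 to 141) without an *Nr5a1* UMI. The 2 interstitial-like clusters, led by *Colec11* and by *Ntng1*, had 26.9 and 23.3 CPM of *Nr5a1*, and the dividing cluster 26.5 CPM, with overlapping intervals.

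By the phase called from its cell cycle genes, *Nr5a1* had 199 CPM (177 to 223) in the G1 cells of the *Nppc* cluster and 143 CPM (121 to 168) in its S and G2/M cells. *Nr2f2* went the other way in the same cells, with 184 CPM (163 to 207) in G1 and 275 CPM (244 to 308) in S and G2/M. Other classes did not show this rise of *Nr2f2*. It had 633 CPM (613 to 654) in G1 and 580 CPM (559 to 601) in S and G2/M in interstitial-like cells. In peritubular myoid-like cells it had 674 CPM (643 to 707) and 602 CPM (579 to 625). Cells of the *Nppc* cluster also differed in Leydig markers, as given below, and the part of this in the phase contrast was not tested. In Sertoli-like cells *Nr5a1* had 78.5 CPM (71.7 to 85.8) in G1 and 69.2 CPM (63.2 to 75.7) in S and G2/M, with overlapping intervals. In the *Clps* cluster 0.781% of cells were called in S or G2/M, against 34.6% in the *Nppc* cluster.

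*Nr2f2* (ENSMUSG00000030551; GRCm38 chr7:70351944-70366735, minus strand) was high in the mesenchymal classes, which had under 30 CPM of *Nr5a1*, and near its germ-like level in Sertoli-like cells. Peritubular myoid-like cells had 629 CPM (610 to 648) and interstitial-like cells 608 CPM (593 to 622), with overlapping intervals. Perivascular-like cells had 513 CPM (474 to 554) and coelomic epithelium-like cells 480.2 CPM (455 to 507), which also overlap, and the unnamed *Kcnk2* cluster had 726 CPM (669 to 786). Endothelial-like cells had 178 CPM, the 22 erythroid-like cells 151 CPM (114 to 197) and Leydig-like cells 125 CPM (116 to 135). The erythroid-like cells also had 110 CPM of *Amh* and 85.4 CPM of *Lhx9*. The part of RNA from other cells in their *Nr2f2* and *Nr5a1* levels was not tested. Sertoli-like cells had 7.08 CPM (5.71 to 8.67) and germ-like cells 5.13 CPM (3.74 to 6.86), a ratio of 1.38 (0.957 to 2.02). The interstitial-like level was 85.8 times the Sertoli-like one (70.0 to 107). The *Ntng1* cluster of interstitial-like cells had 695 CPM and the *Colec11* cluster 579 CPM, a ratio of 1.199 (1.14 to 1.27). The interval of the *Ntng1* cluster (663 to 727 CPM) overlaps that of the *Kcnk2* cluster. An interstitial-like cell held 0 to 27 *Nr2f2* UMIs with a median of 5.

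The thinned share with an *Nr2f2* UMI was 92.3% of interstitial-like cells (90.5 to 93.8%; 1014 of 1099), 43.9% of Leydig-like cells (38.3 to 49.6%; 136 of 310), 2.46% of Sertoli-like cells (1.53 to 3.73%; 21 of 854) and 1.22% of germ-like cells (0.253 to 3.54%; 3 of 245). As read these were 97.1, 69.0, 5.43 and 9.24%. The thinned Sertoli-like share overlaps the germ-like one, so expression is not read from it, and the shares as read come from median depths of 14121 and 36155 UMIs. The highest Sertoli-like cell held 11 *Nr2f2* UMIs, and the median was 0. Without the removal of doublets the Sertoli-like share was 5.92%, and the *Nr2f2* levels of Sertoli-like and germ-like cells were 31.8 and 14.5 CPM. The Sertoli-like *Nr2f2* level was 1.16% of the interstitial-like level. The 7 interstitial markers had 0.707 to 24.6% of their interstitial-like levels in Sertoli-like cells, with a median of 2.06%, and 3 of them lay below *Nr2f2*. The highest was *Ptch1*, a hedgehog receptor.

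The 2 Leydig-like clusters differed in *Nr2f2*. The *Nppc* cluster had 221 CPM (203 to 240.1) and the *Clps* cluster 48.5 CPM (41.2 to 56.8), a ratio of 4.56 (3.81 to 5.48). The *Clps* cluster still had 6.85 times the Sertoli-like level (5.27 to 8.96). The *Nppc* level was 36.4% of the interstitial-like one, beside 10.4 to 59.5% (median 25.8%) for the 7 interstitial markers, of which 6 lay below *Nr2f2*. In the *Clps* cluster *Nr2f2* was at 7.98% of the interstitial-like level, beside 3.36 to 25.1% (median 4.004%) for the markers, 5 of them below *Nr2f2*. Interstitial markers thus moved with *Nr2f2* in the Leydig-like cells, and their part in the *Nr2f2* level was not tested. Without the removal of doublets fewer cells were Leydig-like, and they had 69.6 CPM of *Nr2f2*.

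**Figure D2:**
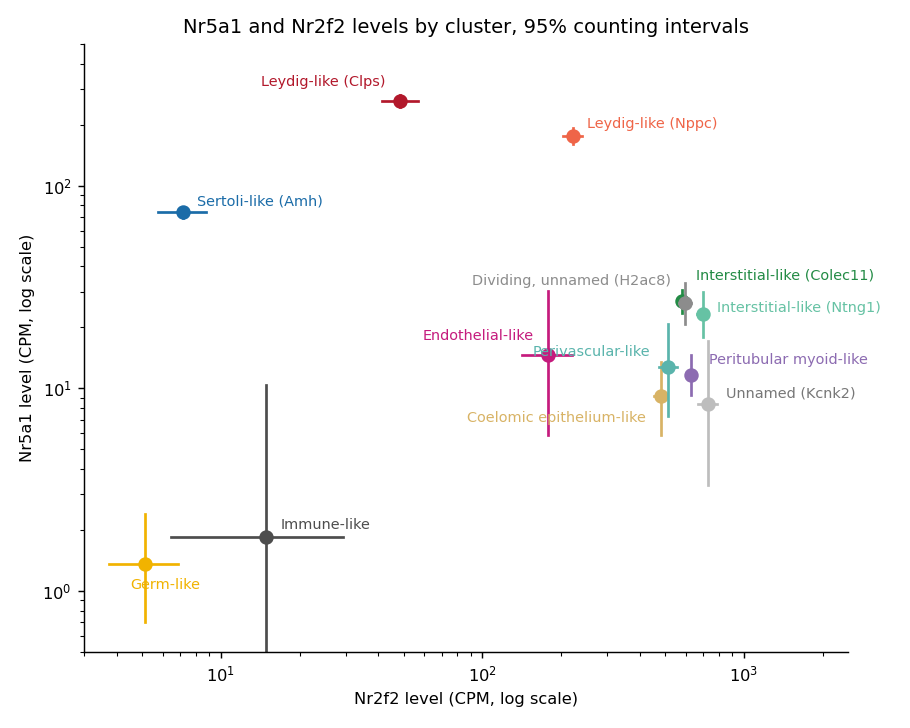
Both axes are log scales, the x axis the *Nr2f2* level and the y axis the *Nr5a1* level in CPM; points are clusters and lines their 95% Poisson intervals. Sertoli-like cells sit at 7.13 CPM of *Nr2f2* and 74.0 CPM of *Nr5a1*, the *Nppc* cluster of Leydig-like cells at 221 and 177 CPM, and the interstitial-like, peritubular myoid-like and coelomic epithelium-like clusters at 480.2 CPM or more of *Nr2f2* and under 30 CPM of *Nr5a1*.

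Cells with UMIs of both *Nr5a1* and *Nr2f2* numbered 246 of 3648 after thinning (6.74%), while 396 had *Nr5a1* alone, 1893 *Nr2f2* alone and 1113 neither. Of the 246 cells, 104 were interstitial-like, 74 Leydig-like, 22 in the dividing cluster, 18 peritubular myoid-like, 13 coelomic epithelium-like, 7 perivascular-like, 4 Sertoli-like and none germ-like. Both were found in 23.9% of Leydig-like cells (19.2 to 29.0%; 74 of 310), 9.46% of interstitial-like cells (7.80 to 11.3%; 104 of 1099) and 0.468% of Sertoli-like cells (0.128 to 1.19%; 4 of 854). For the germ-like cells, 0 of 245 allows a share of up to 1.22%. As read, both were found in 57.2, 19.4 and 2.61% of Leydig-like, interstitial-like and Sertoli-like cells and in 0.402% of germ-like cells. The order of the 3 classes was the same with and without thinning.

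Within the Leydig-like cells, both were found in 29.9% of the *Nppc* cluster (23.4 to 37.1%; 55 of 184) and in 15.1% of the *Clps* cluster (9.33 to 22.5%; 19 of 126). Of the 66 *Nppc* cells with 2 or more *Nr2f2* UMIs, 42.4% also had *Nr5a1*. The median cell of these 66 held only 2 UMIs of the 6 Leydig markers, against 84 in *Nppc* cells without *Nr2f2*. In the *Nppc* cluster 48.7% of cells with *Nr2f2* (39.2 to 58.3%) also had *Nr5a1*, against 66.2% of cells without *Nr2f2* (54.0 to 77.0%). In the *Clps* cluster these shares were 82.6% of 23 cells and 67.0% of 103 cells. In interstitial-like cells they were 10.3% of 1014 cells and 16.5% of 85 cells, and in Sertoli-like cells 19.0% of 21 cells and 30.3% of 833 cells. The intervals overlap within each of these pairs, which does not show that the 2 shares are alike, and the differences were not tested. At least 2 UMIs of each gene were left in 10 Leydig-like and 5 interstitial-like cells, and in no Sertoli-like cell.

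Doublet scores and depths were set beside the cells with both genes. The median doublet score (the share of a barcode's neighbours that are simulated doublets) was 0.193 in cells of the *Nppc* cluster with both genes and 0.178 in its other cells. It was 0.126 and 0.126 in the *Clps* cluster, and 0.133 and 0.126 in interstitial-like cells. Median depths were 13839 and 13673 UMIs in the *Nppc* cluster, 24897 and 21142 UMIs in the *Clps* cluster and 9144 and 8949 UMIs in interstitial-like cells. The part of doublets in the cells with both genes was not tested.

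**Figure D3:**
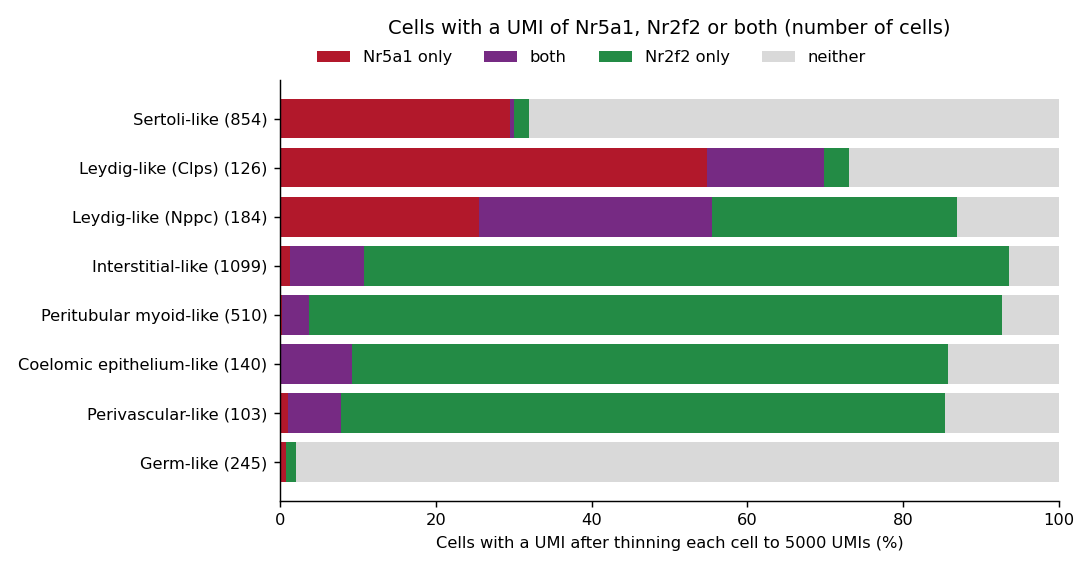
The x axis is the percentage of cells with a UMI of *Nr5a1* only, both genes, *Nr2f2* only or neither after thinning to 5000 UMIs; each bar is a class, or 1 of the 2 Leydig-like clusters, with its number of cells in brackets. The part with both is 29.9% in the *Nppc* cluster, 15.1% in the *Clps* cluster, 9.46% in interstitial-like and 0.468% in Sertoli-like cells.

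The balance of the 2 genes was also taken cell by cell, as the *Nr2f2* share of *Nr5a1* and *Nr2f2* UMIs in cells with 3 or more of them as read. It compares cells, not the abundance of the 2 transcripts. In the *Colec11* cluster of interstitial-like cells the share ran from 33.3 to 100%, with 552 of 719 cells at 100%. In the Sertoli-like cluster led by *Amh*, 96 of 114 cells were at 0%. Only these 114 of its 859 cells had enough UMIs to enter, against 719 of 856 in the *Colec11* cluster. Cells enter mostly through the gene that is high in their cluster, so the contrast between clusters partly follows from this limit. In the *Clps* cluster the median was 12.5% (range 0 to 66.7%), with 49 of 115 cells at 0% and none at 100%. In the *Nppc* cluster the median was 60.0%, with 21 of 156 cells at 0%, 108 between and 27 at 100%. With as few as 3 UMIs in a cell and depths as read, counting alone spreads these shares. The part of counting in their spread was not tested. The *Amh* cluster had 4 cells at 100%, and the erythroid-like cells 1 at 0% and 8 at 100%.

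**Figure D4:**
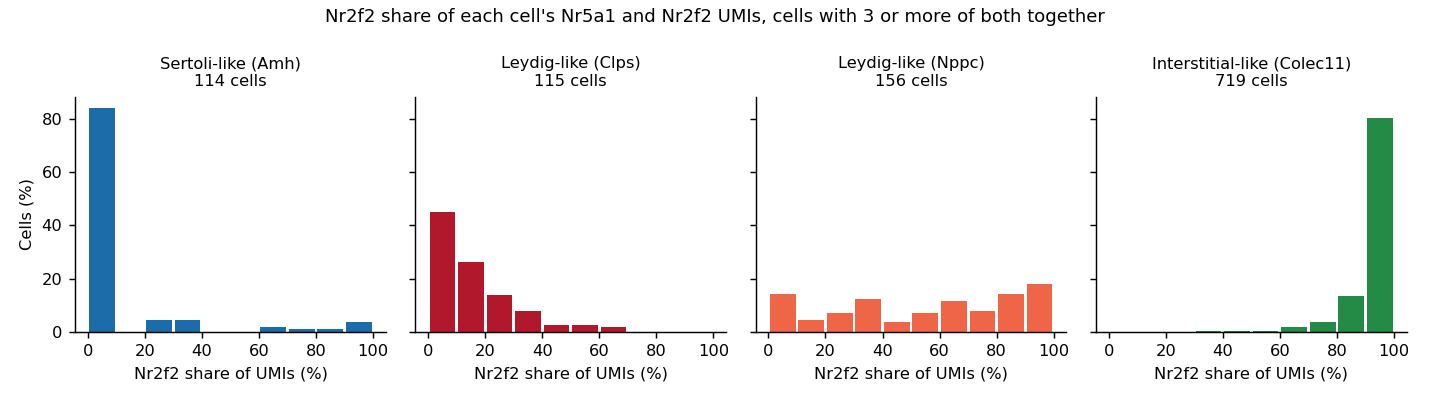
The x axis is the *Nr2f2* share of a cell's *Nr5a1* and *Nr2f2* UMIs in steps of 10 percentage points, and the y axis is the percentage of cells, with the number of cells above each panel. Of cells in the lowest step there are 84.2% in the *Amh* cluster of Sertoli-like cells, 45.2% in the *Clps* cluster and 14.1% in the *Nppc* cluster, and 80.5% of the *Colec11* cluster are in the highest step.

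The cells of the *Nppc* cluster were then set out by their *Nr2f2* UMIs after thinning, 71 with none, 47 with 1 and 66 with 2 or more. *Nr5a1* had 231 CPM (184 to 287), 187 CPM (136 to 251.4) and 121 CPM (86.6 to 165) in these, so that the first and last intervals do not overlap. Some of the listed targets of NR5A1, given next, had a wider span. Of these, *Star*, *Cyp11a1*, *Cyp17a1*, *Hsd3b1* and *Insl3* are also markers that named the cluster Leydig-like. *Star*, which brings cholesterol into mitochondria, had 718, 528 and 100.0 CPM. *Cyp11a1*, the first enzyme of steroid synthesis, had 4223, 2868 and 345 CPM, and *Cyp17a1*, needed for androgens, 6572, 5230 and 588 CPM. *Hsd3b1* had 1594, 974 and 224 CPM, and *Inha*, the inhibin alpha subunit, 808, 600.0 and 81.8 CPM. *Insl3*, the hormone of testis descent, had 377, 391 and 63.6 CPM, the first 2 with overlapping intervals. Of the rest of the list, *Fdx1* had 2628, 1694 and 448 CPM. *Scarb1* had 406, 362 and 170 CPM, the first 2 with overlapping intervals, a span nearer to that of *Nr5a1*. *Sox9* had 25.4, 8.51 and 18.2 CPM, with overlapping intervals, and *Amh* only 5, 1 and 1 UMIs.

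The same cells differed in other markers too. The summed level of the 7 interstitial markers was 392 CPM (329 to 462), 600.0 CPM (505 to 708) and 1048 CPM (941 to 1165) with 0, 1 and 2 or more *Nr2f2* UMIs, and all 7 had UMIs in each set of cells. In interstitial-like cells without *Nr5a1* it was 2730 CPM. Of the 66 cells with 2 or more *Nr2f2* UMIs, 18 had no UMI of the 6 Leydig markers and the median cell had 2, against a median of 84 in cells without *Nr2f2*. The median doublet scores were 0.178, 0.185 and 0.181. The part of cells of another type in these levels was not tested. In the *Clps* cluster, 103 cells without *Nr2f2* had 15449 CPM of *Cyp17a1* and 241 CPM of *Nr5a1*, and 22 cells with 1 *Nr2f2* UMI had 14600 CPM and 336 CPM (237 to 464), with overlapping intervals for both genes.

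**Figure D5:**
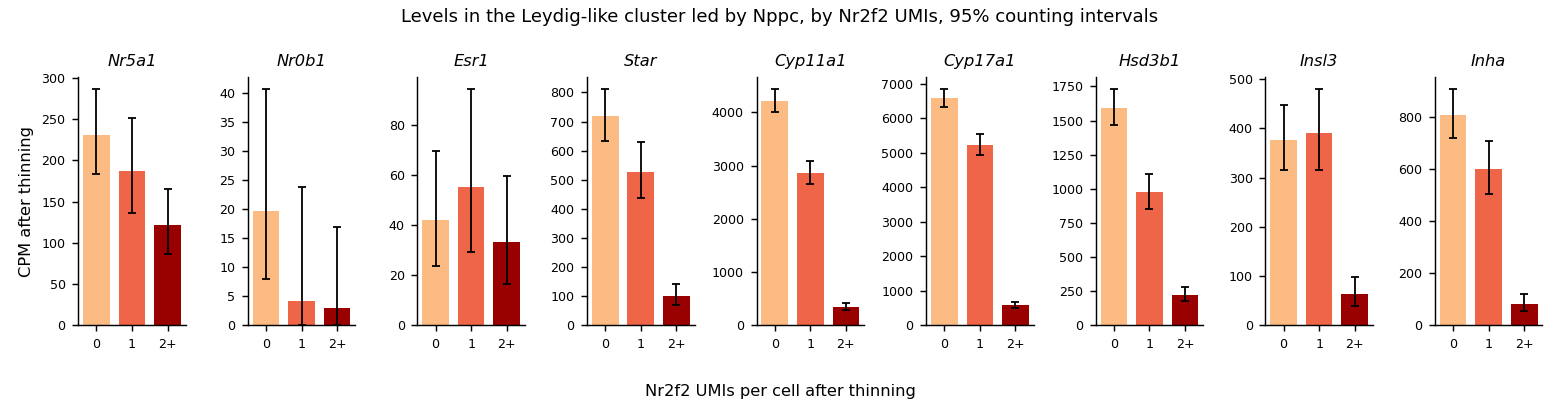
Bars are levels in CPM after thinning, each panel from 0 with its own y axis, for cells of the *Nppc* cluster with 0, 1 or 2 and more *Nr2f2* UMIs (71, 47 and 66 cells), and lines are 95% Poisson intervals. *Nr5a1* goes from 231 to 121 CPM and *Cyp11a1* from 4223 to 345 CPM. The intervals of *Esr1* overlap across the 3 sets of cells, and rest on 15, 13 and 11 UMIs. Those of *Nr0b1* also overlap, and rest on 7, 1 and 1 UMIs (19.7, 4.26 and 3.03 CPM). For both genes the UMIs are too few to show whether the level changed.

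Of the 10 genes on the list of NR5A1 targets, all 10 had at least 5 CPM in Leydig-like cells. In Sertoli-like and in interstitial-like cells 9 did, and in germ-like cells 5. Some were near this limit, such as *Star* (5.08 CPM) and *Hsd3b1* (5.26 CPM) in interstitial-like cells and *Amh* (7.47 CPM) in Leydig-like cells. In interstitial-like cells *Amh*, *Cyp11a1* and *Cyp17a1* had 10.9, 12.7 and 12.6 CPM, beside 11.3, 7.64 and 7.64 CPM in germ-like cells. The part of RNA from other cells in these levels was not tested. The median of the 10 targets was 1510 CPM in Leydig-like cells, 41.4 CPM in Sertoli-like cells and 11.8 CPM in interstitial-like cells. The 13036 genes of at least 1 CPM had medians of 15.5, 18.3 and 17.8 CPM in the same order. Most of those genes thus also had at least 5 CPM. Of the 10 targets, 7 are markers that named the classes, *Star*, *Cyp11a1*, *Cyp17a1*, *Hsd3b1* and *Insl3* for Leydig-like and *Amh* and *Sox9* for Sertoli-like cells. The other 3 were higher in Leydig-like than in Sertoli-like or interstitial-like cells. In Leydig-like cells *Inha* had 1694 CPM, the cholesterol receptor *Scarb1* 923 CPM and *Fdx1*, an electron carrier of the steroidogenic enzymes, 3828 CPM. In Sertoli-like cells these 3 had 291, 62.9 and 71.9 CPM, and in interstitial-like cells 9.51, 44.7 and 82.8 CPM.

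Among the genes upstream of *Nr5a1* or acting with NR5A1, *Gata4* had 168 CPM in Sertoli-like, 73.2 CPM in Leydig-like and 73.4 CPM in interstitial-like cells. *Wt1* had 269.9, 4.52 and 34.1 CPM and *Lhx9* 3.35, 30.2 and 271 CPM in the same order. Both were highest in coelomic epithelium-like cells, with 347 and 434 CPM. Peritubular myoid-like cells had 125 and 306 CPM of them, and perivascular-like cells 51.3 and 328 CPM. *Cited2*, a coactivator, had 271 CPM in Sertoli-like and 584 CPM in Leydig-like cells. Of the 7 genes on this list, 6 had at least 5 CPM in Sertoli-like, 4 in Leydig-like and 7 in interstitial-like cells. All 8 coregulators listed had at least 5 CPM in each of these 3 classes, with medians of 58.2, 59.5 and 59.6 CPM. The medians of the 7 upstream genes and partners were 54.1, 10.3 and 43.0 CPM. Beside both lists, the 13036 genes of at least 1 CPM had medians of 18.3, 15.5 and 17.8 CPM. Most of those genes thus also had at least 5 CPM.

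*Nr0b1* (ENSMUSG00000025056; GRCm38 chrX:86191764-86195947, plus strand) had 24.7 CPM (20.8 to 29.1) in Leydig-like cells, the highest level among classes of 30 or more cells, as for *Nr5a1*. The *Clps* cluster had 36.0 CPM (29.7 to 43.2) and the *Nppc* cluster 10.5 CPM (6.95 to 15.3), a ratio of 3.41 (2.23 to 5.40). Sertoli-like cells had 12.9 CPM (11.0 to 14.95) and peritubular myoid-like cells 10.2 CPM (8.004 to 12.9), with overlapping intervals. Interstitial-like cells had 3.05 CPM (2.10 to 4.28) and germ-like cells 0.570 CPM (0.185 to 1.33). The 2 interstitial-like clusters differed, with 6.78 CPM (4.02 to 10.7) in the *Ntng1* and 1.83 CPM (1.03 to 3.03) in the *Colec11* cluster. Their ratio was 3.69 (1.76 to 7.87), and the *Ntng1* interval overlaps the peritubular myoid-like one. The peritubular myoid-like level was 41.5% of the Leydig-like one, while the 6 Leydig markers had 0 to 0.229% of theirs there. The part of Leydig RNA in this level was not tested. With classes taken from each cell's own markers, the peritubular myoid-like level was 4.85 CPM. The 14 rete testis-like cells, the connection of the cords to the mesonephric ducts, held 19 *Nr0b1* UMIs, which is 113 CPM and 8.66 times the level of the *Amh* cluster (5.09 to 13.9). The 10 Sertoli markers had 0 to 55.7% of their Sertoli-like levels in these cells.

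After thinning, *Nr0b1* was found in 8.71% of Leydig-like, 6.44% of Sertoli-like, 3.92% of peritubular myoid-like and 1.27% of interstitial-like cells, and in 0 of 245 germ-like cells. As read the shares were 25.2, 14.7, 8.46, 2.50 and 2.01%. Of the 27 Leydig-like cells with *Nr0b1*, 70.4% also had *Nr5a1*, against 60.4% of those without *Nr0b1*, and 2 also had *Nr2f2*. In Sertoli-like cells 25.5% of the 55 cells with *Nr0b1* also had *Nr5a1*, against 30.3% of the others.

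The bases before the start of *Nr0b1* (RefSeq, GRCm38.p6, chrX:86191525-86191774, plus strand) are shown because NR5A1 is known to act on this gene and both genes were higher in the *Clps* than in the *Nppc* cluster. Those before the start of *Nr2f2* (chr7:70366747-70366996, minus strand) are shown beside them because *Nr2f2* was lower in the *Clps* than in the *Nppc* cluster. The starts used here are RefSeq's and differ from those in the gene coordinates given for the 2 genes. The end of the *Nr0b1* window therefore lies inside the gene as given there. Capitals mark the half-site AGGTCA, searched on both strands.
Nr0b1: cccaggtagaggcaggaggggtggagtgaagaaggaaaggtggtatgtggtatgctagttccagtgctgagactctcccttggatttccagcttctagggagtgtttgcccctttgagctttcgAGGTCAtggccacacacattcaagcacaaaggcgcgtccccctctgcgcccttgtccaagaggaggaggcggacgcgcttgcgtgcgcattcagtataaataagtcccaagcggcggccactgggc
Nr2f2: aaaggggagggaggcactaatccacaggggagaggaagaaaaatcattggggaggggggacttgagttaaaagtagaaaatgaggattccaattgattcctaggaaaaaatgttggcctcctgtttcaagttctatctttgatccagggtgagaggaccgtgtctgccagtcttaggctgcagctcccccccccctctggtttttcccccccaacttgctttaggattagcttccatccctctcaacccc
The half-site was found at 126 to 121 bases before the *Nr0b1* start and not in the *Nr2f2* window. It was in 14.0% of all 32851 windows of 250 bases. The longer NR5A1 site AAGGTCA, which holds the shorter one, was in neither of the 2 and in 4.08% of all windows. Windows were matched for 6 of the 8 receptors, 9 windows in all, and besides *Nr0b1* 1 of the windows of *Nr6a1* (chr2:38784516-38784765) held the half-site, at 2 places, 1 of them as AAGGTCA on the opposite strand. A match is a run of letters and not evidence of binding.

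*Esr1* (ENSMUSG00000019768; GRCm38 chr10:4611593-5005614, plus strand) was highest in the *Nppc* cluster, with 45.3 CPM (37.4 to 54.3). The *Clps* cluster had 13.1 CPM (9.47 to 17.8), a ratio of 3.45 (2.40 to 5.03) in the direction opposite to *Nr5a1* and *Nr0b1*. The *Kcnk2* cluster had 16.7 CPM (9.11 to 27.9), interstitial-like cells 8.86 CPM (7.18 to 10.8) and coelomic epithelium-like cells 7.68 CPM, and Sertoli-like cells had 0.609 CPM (0.263 to 1.2) from 8 UMIs in 921 cells. The endothelial-like, immune-like and rete testis-like cells had no UMI, which for the 34 endothelial-like cells allows a level of up to 6.27 CPM. Thinned shares were 19.0% in the *Nppc* cluster, 3.17% in the *Clps* cluster, 4.37% in interstitial-like cells, 2.04% in germ-like cells and 0.234% in Sertoli-like cells, and as read 47.0, 28.1, 7.66, 6.83 and 0.869%. Of the 35 thinned cells of the *Nppc* cluster with *Esr1*, 68.6% had *Nr5a1* and 62.9% had *Nr2f2*, against 52.3 and 61.1% of the cells without *Esr1*. At 0, 1 and 2 or more *Nr2f2* UMIs, cells of this cluster had 42.3, 55.3 and 33.3 CPM of *Esr1*, with overlapping intervals. These levels rest on 15, 13 and 11 *Esr1* UMIs, too few to show whether the level changed.

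*Nr2f1* (ENSMUSG00000069171; GRCm38 chr13:78188973-78199757, minus strand) was found in the classes where *Nr2f2* was high, but in another order, with the perivascular-like level between 30.4 and 83.6 CPM under other filters. The *Kcnk2* cluster had 120.2 CPM (97.9 to 146), perivascular-like cells 52.9 CPM (40.9 to 67.3), interstitial-like cells 34.0 CPM (30.6 to 37.6) and peritubular myoid-like cells 18.8 CPM (15.7 to 22.3). The interstitial-like level was 1.81 times the peritubular myoid-like one (1.478 to 2.23), while the 2 classes overlapped for *Nr2f2*. The *Kcnk2* cluster had 3.29 times the level of the *Colec11* cluster (2.60 to 4.13). Leydig-like cells had 6.43 CPM, Sertoli-like cells 3.27 CPM (2.37 to 4.41) and germ-like cells 1.03 CPM. Thinned shares were 35.7% in the *Kcnk2* cluster, 15.5% in perivascular-like, 13.7% in interstitial-like, 7.45% in peritubular myoid-like, 0.408% in germ-like and 1.52% in Sertoli-like cells, and 49.4, 32.7, 22.6, 18.5, 3.61 and 4.56% as read. Of the 151 thinned interstitial-like cells with *Nr2f1*, 92.1% also had *Nr2f2*, beside 92.3% of all interstitial-like cells.

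*Nr2f6* (ENSMUSG00000002393; GRCm38 chr8:71374123-71381960, minus strand) was the only 1 of the 3 *Nr2f* genes with its highest level in germ-like cells, at 176 CPM (167 to 185). Endothelial-like (115 CPM), perivascular-like (109 CPM) and interstitial-like cells (95.4 CPM) overlapped with their neighbours. Leydig-like cells had 48.8 CPM (43.3 to 54.9) and Sertoli-like cells 47.8 CPM (44.1 to 51.7). The germ-like level was 1.84 times the interstitial-like one (1.70 to 1.996) and 3.68 times the Sertoli-like one (3.35 to 4.04). A germ-like cell held 0 to 20 UMIs with a median of 5. The thinned share was 55.5% of germ-like, 37.4% of interstitial-like, 22.0% of Sertoli-like and 21.3% of Leydig-like cells, and 96.0, 56.3, 48.1 and 55.3% as read. Immune-like cells, with the lowest level at 27.9 CPM, had a thinned share of 21.9%. *Ocel1*, which overlaps *Nr2f6* on the other strand, had 449 UMIs in all cells, against 4883 of *Nr2f6*.

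*Nr6a1* (ENSMUSG00000063972; GRCm38 chr2:38723370-38927688, minus strand), the neighbour of *Nr5a1* on the same strand with 8827 bases between them, had few UMIs. Of its 157 UMIs in the kept cells, 81 were in germ-like cells (9.23 CPM, 7.33 to 11.47) and 47 in Sertoli-like cells (3.58 CPM, 2.63 to 4.76). The germ-like level was 2.58 times the Sertoli-like one (1.78 to 3.78), and the Sertoli-like level 5.54 times the interstitial-like one (2.49 to 14.5; 7 UMIs in 1162 cells). *Nr6a1* in Sertoli-like cells was at 38.7% of its germ-like level, while the 8 germ markers were at 0.548 to 4.09%. The part of germ cell RNA in the Sertoli-like *Nr6a1* level was not tested. Leydig-like cells, where *Nr5a1* was highest, had 8 *Nr6a1* UMIs (1.39 CPM). After thinning it was found in 2.45% of germ-like and 1.64% of Sertoli-like cells, and as read in 24.9 and 4.89%. Perivascular-like cells had none, which allows a level of up to 2.40 CPM.

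*Nr3c1* (ENSMUSG00000024431; GRCm38 chr18:39410545-39519421, minus strand) was spread most evenly over the somatic cells outside the cords. Interstitial-like (26.5 CPM), Leydig-like (25.2 CPM), peritubular myoid-like (24.97 CPM), perivascular-like (24.0 CPM) and coelomic epithelium-like cells (21.2 CPM) had overlapping intervals. The immune-like cells had 42.7 CPM (27.1 to 64.1), the dividing cluster 39.9 CPM (32.8 to 48.1) and the *Kcnk2* cluster 69.0 CPM (52.4 to 89.2), which is 2.52 times the *Colec11* cluster (1.85 to 3.38). Germ-like cells had 9.57 CPM (7.64 to 11.9) and Sertoli-like cells 5.78 CPM (4.56 to 7.24). The 2 Leydig-like clusters, at 28.5 and 22.5 CPM, overlapped. Thinned shares were 31.0% in the *Kcnk2* cluster, 11.8% in interstitial-like, 11.0% in Leydig-like, 4.08% in germ-like and 2.46% in Sertoli-like cells, and 44.9, 20.7, 33.2, 26.1 and 7.17% as read. Of 6 known glucocorticoid targets, 3 had at least 5 CPM in Sertoli-like, 3 in Leydig-like and 4 in interstitial-like cells. Their medians were 6.81, 10.4 and 5.86 CPM, beside 18.3, 15.5 and 17.8 CPM for all genes of at least 1 CPM. *Fkbp5*, a chaperone of steroid receptors, had its highest level in Sertoli-like cells, where *Nr3c1* was lowest among classes of 30 or more cells, with 214 CPM in Sertoli-like, 147 CPM in Leydig-like and 94.3 CPM in interstitial-like cells. *Tsc22d3* (GILZ) had 4.72, 17.2 and 43.1 CPM in these classes.

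To place the receptors among all genes, classes were compared for the 10513 genes of at least 5 CPM over all kept cells, with 5 CPM added to both levels, counting genes past 2-fold. Of the 8 receptors 7 entered, and *Nr6a1* fell under the limit. Between Sertoli-like and interstitial-like cells 10.8% of genes were higher and 10.4% lower in Sertoli-like cells, and of the 7 receptors 2 were higher (*Nr5a1*, log2 ratio 1.34, and *Nr0b1*, 1.15) and 4 lower (*Nr2f1*, -2.24, *Nr2f2*, -5.66, *Esr1*, -1.31, and *Nr3c1*, -1.55). Between Leydig-like and interstitial-like cells 6.5% were higher and 8.94% lower in Leydig-like cells, among them *Nr5a1* (2.88), *Nr0b1* (1.88) and *Esr1* (1.23) as higher and *Nr2f1* (-1.77) and *Nr2f2* (-2.23) as lower. Between Leydig-like and Sertoli-like cells 7.65% were higher and 11.3% lower in Leydig-like cells, and 4 receptors were higher, *Nr5a1* (1.54), *Nr2f2* (3.43), *Esr1* (2.53) and *Nr3c1* (1.49), and none lower. Between germ-like and interstitial-like cells 13.6% were higher and 24.8% lower in germ-like cells, with none of the 7 receptors higher and *Nr5a1* (-2.28), *Nr2f1* (-2.69), *Nr2f2* (-5.92) and *Nr3c1* (-1.11) lower. The comparisons share classes and are not independent. The median log2 ratio of all genes lay between -0.18 and 0.04.

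Of the 49 receptors of the superfamily, 22 had at least 5 CPM in Leydig-like, 20 in Sertoli-like and 17 each in interstitial-like and germ-like cells. Medians of the 49 were 2.08, 1.07, 2.49 and 1.14 CPM in the same order. Genes of at least 1 CPM had medians of 15.5, 18.3, 17.8 and 13.3 CPM, but the 49 receptors were not chosen by level. Past 2-fold, of the 21 that entered the comparison of classes, 5 were higher and 5 lower in Sertoli-like than in interstitial-like cells, beside 10.8 and 10.4% of all genes, and 6 higher and 6 lower in Leydig-like than in interstitial-like cells, beside 6.5 and 8.94%. In Leydig-like against Sertoli-like cells 4 were higher and 2 lower, beside 7.65 and 11.3%. In germ-like against interstitial-like cells 1 was higher and 8 lower, beside 13.6 and 24.8%. Outside the 8, those with the highest levels in a class of 100 or more cells began with *Thra*, a thyroid hormone receptor, at 247 CPM in Sertoli-like, 205 CPM in interstitial-like and 62.6 CPM in Leydig-like cells. *Rara*, a retinoic acid receptor, had 65.1, 35.0 and 10.3 CPM in these. *Nr0b2* (SHP), the nearest relative of *Nr0b1*, had 25.9, 1.38 and 28.0 CPM, with 36.6 CPM in the *Clps* and 17.2 CPM in the *Nppc* cluster. *Rora* had 25.04, 6.46 and 22.9 CPM and *Nr4a1* 13.6, 2.77 and 16.9 CPM, both with the lowest of these levels in interstitial-like cells. *Rxrb*, *Nr1h2* and *Nr1d2* were highest in germ-like cells (45.5, 43.3 and 38.8 CPM), *Nr2c2* and *Vdr* in coelomic epithelium-like cells (34.4 and 17.5 CPM) and *Rxra* in interstitial-like cells (29.5 CPM).

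The genes whose levels were most like those of 4 of the receptors were found by Pearson's r of log2(CPM + 5) over the 9 named classes of 30 or more cells, among 8763 genes of at least 10 CPM. For *Nr5a1* they were *Sqstm1* (r = 0.996), *Fam122a* (0.981) and *Nectin1* (0.978), and for *Nr2f2* *Mfap2* (0.993), *Selenom* (0.990) and *Nhs* (0.990). For *Nr0b1* they were *mt-Nd2* (0.944), *Rnf19a* (0.931) and *Scd2* (0.931), and for *Nr6a1* *Tmem60* (0.978), *Txlng* (0.978) and *Tefm* (0.973). Over all kept cells *Nr0b1* and *Nr6a1* had 8.67 and 2.88 CPM, under the limit set for the other genes. Most *Nr6a1* UMIs were in germ-like and Sertoli-like cells, so its r rests mainly on those classes. Each r is among the highest of 8763 over only 9 classes, so its size partly follows from the search. The classes come from 1 library and differ in depth, so these values are a description.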

How the data were processed

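One Chromium Single Cell 3′ v3 library of control testes was used. The deposited values are raw UMI counts of each gene in each barcode. To make them the authors ran Cell Ranger against mm10 (GRCm38) with a YFP sequence added. The file header names version 3.1.0, and the submitters' processing notes list 3.0.2 and 3.1.0, while the study's methods name a later version. After the study's scheme, barcodes with fewer than 200 genes were removed, then doublets (204, called by the share of simulated doublets among neighbours) and then 1033 outliers past 3 median absolute deviations. The rest was clustered in Seurat 5.3.0 (sctransform 0.4.2, 3000 variable genes, cell cycle and mitochondrial share regressed, 30 components, resolution 0.8) in R 4.3.3. Filters, doublet scores (scikit-learn 1.9.0), levels and intervals (scipy 1.17.1, with pandas 2.3.3 and numpy 2.4.6) were computed in Python 3.11.15.

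A cluster was named where at least 3 markers were in 25% or more of its cells and the mean log2 ratio of its markers to other cells was at least 1. Intervals are 95% exact, Poisson for CPM, Clopper-Pearson for shares and conditional binomial for ratios, and a count of 0 was given a limit of 3 counts. UMIs count molecules, and the intervals leave out variation between animals. Fold comparisons and intervals were run on simulated cells, drawn at random from a fixed profile for each group. Those cells vary by counting only, so the run cannot show how well the intervals cover real cells. Receptors outside the 8 were named by their highest CPM in a class of 100 or more cells, and of the 12 highest 1 is not reported here. The 8 receptors and all lists were chosen with earlier results of these data known. Promoter sequences are RefSeq's, build GRCm38.p6. The alternatives changed the filters, the clustering, the naming, the thinning, the added CPM and the limit on low genes.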

Additional observations from a re-analysis of the deposited data

How the results depend on the processing

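Shares of cells moved most with depth. Thinned to 3000 UMIs, *Nr5a1* was found in 46.3% of Leydig-like and 19.2% of Sertoli-like cells, *Nr2f2* in 31.6% of Leydig-like and 82.2% of interstitial-like cells, and both in 10.9% of Leydig-like, 6.08% of interstitial-like and 0.112% of Sertoli-like cells. With no thinning, *Nr5a1* was in 86.3 and 59.3%, *Nr2f2* in 69.0% of Leydig-like, 97.1% of interstitial-like and 5.43% of Sertoli-like cells, and both in 57.2, 19.4 and 2.61%. Without doublet removal, Leydig-like cells had *Nr5a1* in 68.9%, *Nr2f2* in 29.4% and both in 18.7%, and Sertoli-like cells *Nr2f2* in 5.92%. With doublets removed at double the expected rate, both were in 11.9% of interstitial-like and 0.116% of Sertoli-like cells. For Leydig-like cells, *Nr2f2* was in 36.5% with outliers past 5 deviations removed, where both were in 18.7%, in 36.2% with no outlier filter and in 35.9% with classes from each cell's own markers, where *Nr5a1* was in 68.5%. The other 78 of 104 values of these shares stayed within the intervals of the reported ones, a second random draw of the thinning and the dividing cluster counted as interstitial-like, both chosen after seeing the data, included. With 1 CPM added, 1415 genes in place of 940 were lower in Leydig-like than in interstitial-like cells. In germ-like against interstitial-like cells, *Nr0b1* and *Esr1* were then also lower, and with genes of at least 1 CPM tested *Nr6a1* entered and was higher. The causes were not tested, except that thinning to fewer UMIs lowers any share by construction. The class with the highest level, among the 7 that had 100 or more cells in the reported clustering, changed for *Nr2f1* with more doublets removed, for *Nr2f2* with classes from each cell's own markers, and for *Nr3c1* with those classes and with no outlier filter. The perivascular-like class then had 99 cells with more doublets removed and 63 with no outlier filter. No paired analysis was possible because there was 1 library.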
